A study of Drosophila melanogaster with 12 samples.

Results

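The comparison described here asked whether a transcript changed by the same amount between G1 and G2 in 2 kinds of Drosophila melanogaster cells. For each probe set, the change from G1 to G2 in S2 cells was subtracted from the change from G1 to G2 in the wing disc. Members were the probe sets whose log2 intensity reached 5 on 3 or more of the 6 disc arrays and also on 3 or more of the 6 S2 arrays. This gave 7050 of 18769 probe sets, against 880 detected in the disc only, 629 in S2 only and 10210 in neither. The members cover 5788 of the 11981 genes that have a probe set of their own, and each gene was followed through its brightest probe set.

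The groups were wing disc G2, wing disc G1, S2 G2 and S2 G1, with 3 arrays each. The discs came from wandering third-instar OreR larvae grown at 25 °C, the S2 cells were at under 30 passages, and no group carried a mutation or a drug treatment in the labels. Cells were sorted on DNA content, with G1 taken at the 2C peak and G2 at the 4C peak, a gate that the labels name G2/M because cells in mitosis have the same DNA content. RNA of whole sorted fractions was amplified from 100 ng, so that fewer cells of a type and less RNA per cell cannot be told apart in any value below. The title number pairs a G2 array with a G1 array, with numbers 2, 3 and 4 in the disc and 4, 5 and 6 in S2. The labels do not give the dissection or culture behind each array, and the p-values below cover only the spread among the arrays at hand. Median intensity per array was 18.1 to 20.6, and 40.4% to 42.0% of probe sets reached the detection level.

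Both cell types cycle, but under different control. The wing disc is a folded epithelial sheet that grows and is patterned in the larva, and its cells begin to leave the cell cycle around pupariation. S2 is a line derived from embryos, grows in suspension or loosely attached, and has features of haemocytes, the blood cells of the fly. In a cycling cell, transcription driven by E2F supplies the DNA replication machinery around the entry into S phase. A later set of genes, controlled by the Myb and MuvB complex, supplies mitosis. A gate at 2C holds cells from the end of mitosis to the start of S phase, and it also holds cells that have left the cycle.

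The labels were checked against markers. In the disc, the wing disc genes nub, vg, en, salm and ara had group means between 8.40 and 9.97, whereas in S2 the same genes lay between 2.49 and 4.67. The disc markers ap and pnr did not separate the cell types, since ap averaged 9.93 in disc G2 and 10.28 in S2 G2, and pnr 8.73 and 10.98. The blood cell transcription factor srp averaged 2.98 in disc G2 and 2.87 in disc G1, against 10.70 in S2 G2 and 10.43 in S2 G1. Hml, He and Pxn averaged 5.36, 6.38 and 5.80 in disc G2, against 11.22, 8.35 and 10.33 in S2 G2. Other blood cell markers did not mark S2: NimC1 averaged 5.21 in disc G2 and 4.30 in S2 G2, and PPO1 4.98 and 4.74. SPARC was bright in both cell types (10.73 in disc G2 and 12.59 in S2 G2). Among the 4 genes kept as a check of the sort, dnk, CycE and PCNA, which serve S phase, fell in G2 in both cell types, and CycB, the mitotic cyclin, rose in both.

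Values below are log2 intensities or differences of them, and a step of 1 is a doubling. "Change" means G2 minus G1 within a cell type, and "difference" means the disc change minus the S2 change. Errors on changes and differences are standard errors of the fit (SE), and a gene passed at an adjusted p under 0.05 in limma.

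The difference passed for 758 of 7050 probe sets (10.8%), of which 304 were higher (4.31%) and 454 lower (6.44%), and for 663 of 5788 genes (11.5%), of which 259 were higher (4.47%) and 404 lower (6.98%). An unadjusted p under 0.05 was reached by 1858 probe sets. The median size of a difference that passed was 0.66, and 130 genes had a difference of at least 1 in size (44 higher and 86 lower). In all 663 genes, every disc pair lay on one side of every S2 pair, which held for 33.8% of all genes tested. Across the 5788 genes the disc change and the S2 change, which share no array, correlated at r = 0.387. The count of probe sets rests in part on single pairs: it was 367 without S2 pair 4, 387 without disc pair 4 and 408 without disc pair 2, and it was 298 when the pairing was left out of the fit. A group mean under 5, close to background, was found in 35 of the 663 genes and in 143 of all genes tested, and it limits the size of their fitted differences. Among the genes named below these included Ect3, Mtk, AttD, CG5397, CG12768, mael, APC7, ct, Ppn, spirit and Sp7.

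**Figure D1:**
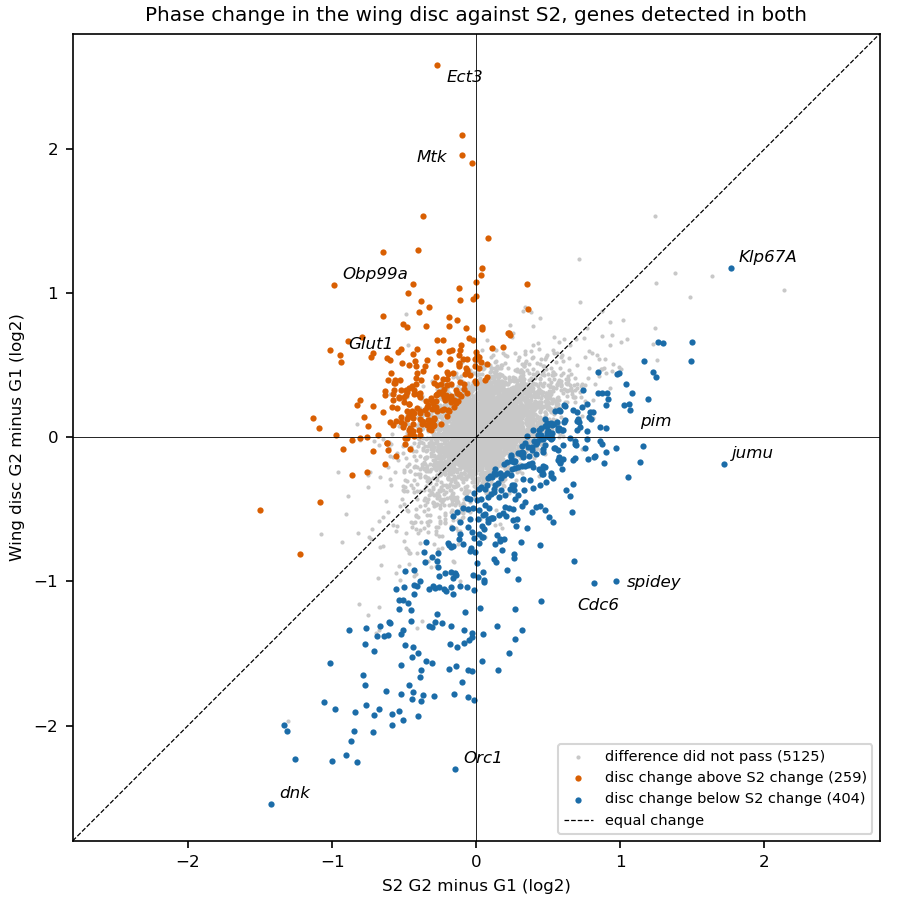
Change in disc G2 relative to G1 (vertical axis, log2) against change in S2 G2 relative to G1 (horizontal axis, log2), with 1 point per gene for the 5788 genes detected in both cell types. Colours mark the 259 genes whose disc change lay above their S2 change and the 404 genes where it lay below, and the dashed line marks equal change. The coloured points below the line extend to disc falls of over 2 (dnk at -2.54, Orc1 at -2.30), while Ect3 is the highest point above it.

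Genes with a passing difference were sorted by what each cell type did. On the lower side, 151 genes fell in the disc and did not pass in S2, 135 rose in S2 and did not pass in the disc, 69 fell in both, 25 fell in the disc and rose in S2, and 15 rose in both. The 69 genes that fell in both had a median change of -1.45 in the disc and -0.54 in S2. On the higher side, 97 genes fell in S2 without passing in the disc, 92 rose in the disc without passing in S2, and 49 rose in the disc and fell in S2. The other groups were small: 4 genes fell in both, 2 rose in both and 15 passed in neither, with 9 more such genes on the lower side. As a background to these counts, 21.5% of all genes changed in the disc (12.6% rose and 8.88% fell), and 23.4% changed in S2 (15.4% rose and 8.05% fell). Median change over all genes was 0.06 in the disc and 0.04 in S2, and the median difference was -0.01. Genes on the higher side were 0.33 brighter in the disc than in S2 at the median, genes on the lower side 0.32 dimmer (a median of -0.32), and all genes 0.08 dimmer (a median of -0.08).

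The genes that license replication origins and start the replicative helicase formed the lowest list with over 10 genes tested. In G1, the origin recognition complex, Cdc6 and the Cdt1 homologue dup load the Mcm helicase on DNA, and later Cdc45, the GINS complex, Mcm10 and the TopBP1 homologue mus101 help to activate it. Of 20 such genes, 17 had a lower difference (85.0%, against 6.98% of all genes), 0 had a higher one, and the median difference was -1.16. In the disc 17 of the 20 fell, with a median change of -1.36, whereas in S2 10 fell and 3 rose, with a median change of -0.36. Between 15 and 17 genes had a lower difference when any 1 of the 6 pairs was left out. Adult muscle precursor markers and a haemocyte marker set, given with the matrix genes below, also had lower sums in disc G2. Most of the haemocyte sum came from SPARC. What these cells add to the changes of the licensing genes was not tested.

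Orc1, the largest subunit of the origin recognition complex, was at 6.45, 6.09 and 6.02 in disc G2, against 8.79, 8.29 and 8.39 in disc G1. In S2 it was at 6.59, 6.64 and 7.04 in G2, against 6.87, 6.90 and 6.95 in G1. All 3 disc G2 arrays lay far below disc G1, while the S2 ranges overlapped. The disc change was -2.30 ± 0.09, the S2 change -0.15 ± 0.09 (adjusted p = 0.273), and the difference -2.15 ± 0.12 (adjusted p = 0.000186), which made Orc1 the gene with the lowest difference of the 663.

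Cdc6 went in opposite directions. Its values were 6.87, 6.80 and 6.51 in disc G2, against 7.62, 7.75 and 7.84 in disc G1, and 6.68, 6.93 and 7.23 in S2 G2, against 6.22, 5.76 and 6.40 in S2 G1. Every G2 array was below G1 in the disc and above G1 in S2. It fell by 1.01 ± 0.14 in the disc and rose by 0.82 ± 0.14 in S2, a difference of -1.83 ± 0.21 (adjusted p = 0.00168). The helicase activator mus101 did likewise, with a fall of 1.13 ± 0.10 in the disc, a rise of 0.45 ± 0.10 in S2 and a difference of -1.59 ± 0.14 (adjusted p = 0.00059).

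For dup, the values were 8.66, 8.63 and 8.72 in disc G2, against 10.51, 10.53 and 10.45 in disc G1, and 9.29, 9.92 and 9.94 in S2 G2, against 9.83, 9.95 and 9.42 in S2 G1. The disc fractions stood nearly 2 units apart in each pair, and in S2 pair 4 was lower and pair 6 higher in G2. The difference was -1.81 ± 0.23 (adjusted p = 0.00288). Orc2 was at 7.11, 6.92 and 7.06 in disc G2, against 8.62, 8.63 and 8.68 in disc G1, and at 7.01, 7.36 and 7.35 in S2 G2, against 7.23, 7.37 and 7.28 in S2 G1, so that only the disc fractions were apart. The difference of Orc2 was -1.56 ± 0.11 (adjusted p = 0.000367).

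The helicase subunits themselves had smaller differences than Orc1, and several of them fell in S2 too. Mcm5 changed by -1.77 ± 0.13 in the disc and -0.44 ± 0.13 in S2, a difference of -1.33 ± 0.18. Mcm2 (-1.10), Mcm3 (-1.23), dpa, the Mcm4 gene (-1.25), and Mcm6 (-0.82) were also lower. Mcm10 had a difference of -1.45 ± 0.14, Cdc45 of -1.25 ± 0.11, and the GINS genes Sld5, Psf1 and Psf3 of -0.99, -0.74 and -0.47. Orc5 and Orc4 were at -0.83 and -0.62. The 3 members that did not pass were the GINS gene Psf2 (-0.15), the kinase gene Cdc7 (-0.32, adjusted p = 0.0807) and chif (-0.15), which encodes the partner of that kinase.

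**Figure D2:**
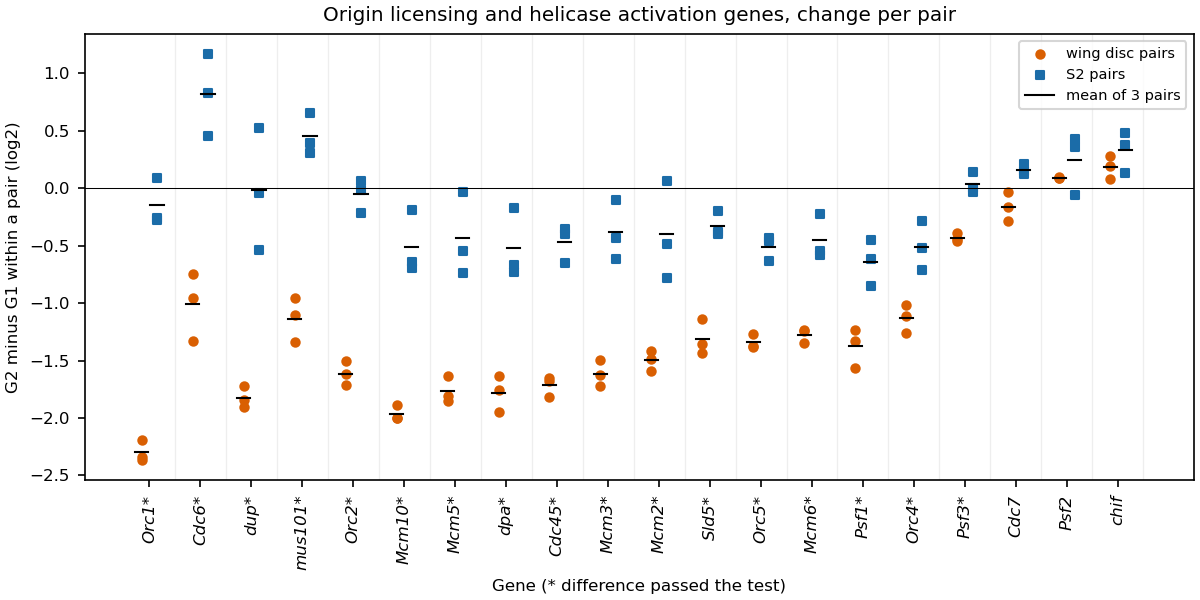
Change in G2 relative to G1 (log2) in each of the 3 disc pairs and 3 S2 pairs for genes of origin licensing and helicase activation. Disc pairs of Orc1 lie at about -2.3 on average against -0.15 in S2, and the Cdc6 pairs lie below 0 in the disc and above 0 in S2.

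At the replication fork and in nucleotide supply the pattern was one of a shared direction and unequal size. Of 34 genes, 27 had a lower difference (79.4%, against 6.98% of all genes), 0 a higher one, and the median was -0.77. Here 31 fell in the disc and 25 fell in S2, with median changes of -1.37 and -0.57. Between 21 and 26 genes had a lower difference when a pair was left out. The 3 lowest values were those of PolA2 (-1.53), Prim2 (-1.44) and Prim1 (-1.42), which belong to the DNA polymerase alpha and primase complex that lays down the primers, and PolA1 of the same complex was at -1.25.

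Prim1 was at 7.02, 7.01 and 7.16 in disc G2, against 9.36, 9.24 and 9.34 in disc G1, and at 7.06, 7.31 and 7.70 in S2 G2, against 8.09, 8.23 and 8.24 in S2 G1. Neither cell type had overlapping fractions, and the gap in the disc was over 2 units. The difference was -1.42 ± 0.14 (adjusted p = 0.000906). For dnk, a deoxyribonucleoside kinase, the values were 9.50, 9.23 and 9.29 in disc G2, against 11.89, 11.88 and 11.87 in disc G1, and 11.00, 11.05 and 11.12 in S2 G2, against 12.43, 12.59 and 12.43 in S2 G1. The fractions were again apart in both cell types. Its disc change of -2.54 was the lowest in the disc among the genes named here, its S2 change was -1.43, and the difference was -1.12 ± 0.11 (adjusted p = 0.000939).

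The ribonucleotide reductase subunit RnrL had a difference of -1.06 ± 0.11, thymidylate synthase (Ts) of -0.97 ± 0.10, and the sliding clamp PCNA of -0.64 ± 0.11. CG12892, a subunit of the chromatin assembly factor that places histones on new DNA, changed by -1.36 ± 0.08 in the disc and 0.05 ± 0.08 in S2, a difference of -1.41 ± 0.11 (adjusted p = 0.000481). The clamp loader gene RfC3 was the fork gene that moved in opposite directions: it fell by 0.37 ± 0.08 in the disc and rose by 0.63 ± 0.08 in S2 (difference -0.99 ± 0.11). Members that did not pass included Claspin (-0.66), RPA1 (-0.53), dUTPase (0.16) and Caf1-55 (0.17).

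Unequal falls were also measured outside the replication lists. Slbp, which binds the stem-loop of histone mRNA, was at 9.17, 9.33 and 9.27 in disc G2, against 10.54, 10.65 and 10.53 in disc G1, and at 9.91, 10.09 and 10.19 in S2 G2, against 10.23, 10.42 and 10.48 in S2 G1. The disc gap exceeded 1 unit in each pair and the S2 gap was about 0.3, giving a difference of -1.01 ± 0.09 (adjusted p = 0.00063). RecQ4, a helicase of replication initiation, changed by -1.90 in the disc and -0.54 in S2 (difference -1.37 ± 0.11). Humpty dumpty (hd), which is needed for DNA replication, had a difference of -1.13 ± 0.13. Among genes with small p that fell in both were also CG10336 (-1.32), CG11164 (-1.36), CG13690 (-1.25), the maltase gene Mal-A5 (-1.42) and zuc, a nuclease of the piRNA pathway (-0.96).

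G1/S regulators were mixed. Of 21 genes, 7 had a lower difference (33.3%, against 6.98% of all genes) and 1 a higher one (4.76%, against 4.47%), and the median was -0.31. CycE, the cyclin of S phase entry, was at 6.98, 7.07 and 7.24 in disc G2, against 8.41, 8.62 and 8.57 in disc G1, and at 7.44, 7.30 and 7.89 in S2 G2, against 8.11, 8.37 and 8.47 in S2 G1. It was lower in every G2 array of both cell types, by 1.44 in the disc and 0.77 in S2, a difference of -0.67 ± 0.14 (adjusted p = 0.0226). Rbf2, of the retinoblastoma family, had a difference of -0.81 ± 0.10 (adjusted p = 0.00191), with -0.97 in the disc and -0.16 in S2. Members of the complex that holds Rbf and Myb differed among themselves: mip130 rose in both (0.37 and 1.04, difference -0.67 ± 0.12), lin-52 fell in the disc by 0.80 and was at -0.01 in S2 (difference -0.79 ± 0.20), and Dp, the E2F partner, had a difference of -0.46 ± 0.11. Cks30A was at -0.62 ± 0.10 and mip40 at -0.48. Cdk4 was the higher member (0.45 ± 0.10), with -0.05 in the disc and a fall of 0.50 in S2. The count on the lower side ranged from 3 to 8 with a pair left out, and CycE (4 of 6 pairs, adjusted p up to 0.0907), Dp (4 pairs), mip130 (S2 pair 4), lin-52 and Cdk4 (5 pairs each) lost their calls in some of these fits. The call of mip40 was lost at least without disc pair 2 and without disc pair 4.

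In the lists of mitotic genes, all of the differences that passed were lower ones. Of 19 genes of the kinetochore and the chromosomal passenger complex, 7 had a lower difference (36.8%, against 6.98% of all genes) and 0 a higher one, with a median of -0.45. In the disc 4 rose and 2 fell, against 12 that rose and 0 that fell in S2, and the median change was 0.09 in the disc and 0.43 in S2. Of 28 genes of mitotic entry and exit, 5 were lower (17.9%, against 6.98% of all genes) and 0 higher (median -0.14), and 7 rose in the disc, against 13 in S2. Of 33 genes of the spindle and cytokinesis, 5 were lower (15.2%, against 6.98% of all genes) and 0 higher (median -0.22), and 12 rose in the disc, against 20 in S2. For comparison, 12.6% of all genes rose in the disc and 15.4% in S2.

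pim, the securin that holds separase in check until anaphase, was at 9.70, 9.80 and 9.77 in disc G2, against 9.55, 9.57 and 9.57 in disc G1, and at 9.69, 9.70 and 9.95 in S2 G2, against 8.63, 8.83 and 8.68 in S2 G1. All 4 groups except S2 G1 lay within about 0.4 of each other, and S2 G1 lay about 1 unit below. The difference was -0.87 ± 0.12 (adjusted p = 0.00343). CycB3, a mitotic cyclin, was at 8.96, 8.89 and 9.0 in disc G2, against 8.97, 8.96 and 8.97 in disc G1, and at 8.81, 9.01 and 8.70 in S2 G2, against 7.99, 8.27 and 7.95 in S2 G1. Its disc fractions overlapped and its S2 fractions did not, and the difference was -0.78 ± 0.09 (adjusted p = 0.00167). The separase partner thr was at -0.76 ± 0.13, the checkpoint gene mad2 at -0.67 ± 0.10, and APC7, an anaphase-promoting complex subunit, at -0.90 ± 0.22. CycB itself changed by 0.47 in the disc and 1.0 in S2, and its difference of -0.53 ± 0.18 did not pass (adjusted p = 0.112).

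The centromere histone cid stood apart within the kinetochore list. Its values were 6.05, 6.16 and 5.98 in disc G2, against 7.68, 7.41 and 7.30 in disc G1, and 6.97, 7.32 and 7.59 in S2 G2, against 6.88, 6.98 and 7.23 in S2 G1. It was lower in every disc G2 array and overlapped between the S2 fractions, with a disc change of -1.40 ± 0.09, an S2 change of 0.27 ± 0.09 (adjusted p = 0.0798) and a difference of -1.66 ± 0.13 (adjusted p = 0.000481). Nuf2 of the Ndc80 complex had -0.15 in the disc and a rise of 0.68 in S2 (difference -0.83 ± 0.13), and Ndc80 had 0.13 and a rise of 0.80 (difference -0.67 ± 0.12). The borealin gene borr fell by 0.45 in the disc and rose by 0.34 in S2. Cenp-C (-0.68 ± 0.16), Spc105R (-0.54 ± 0.12) and Zw10 (-0.41) were the other members with a lower difference.

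**Figure D3:**
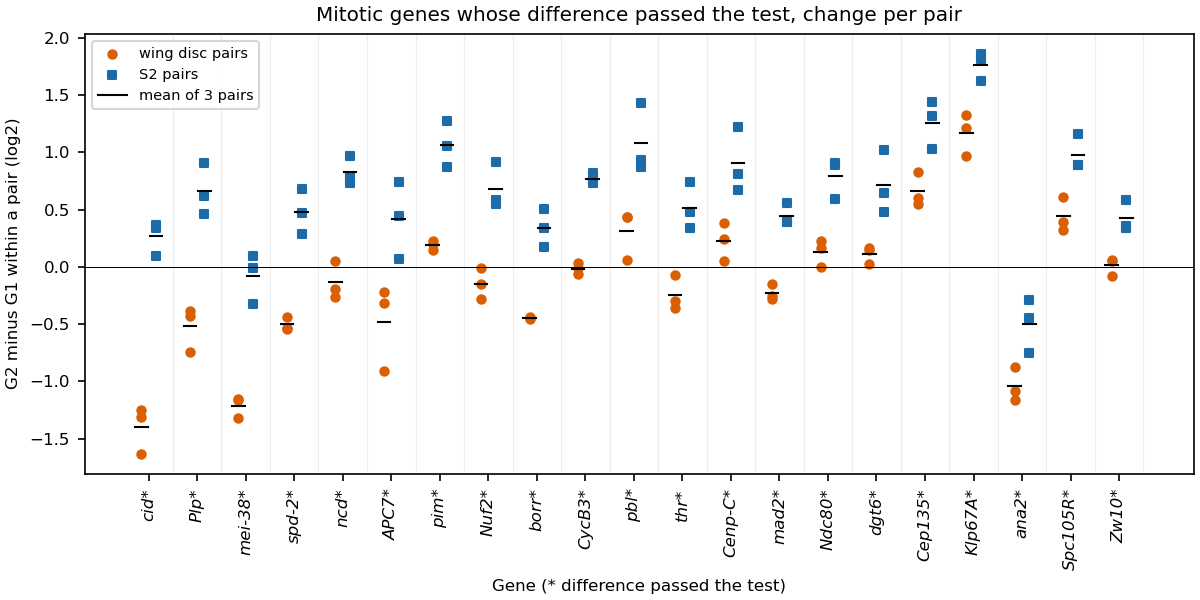
Change in G2 relative to G1 (log2) in each of the 3 disc pairs and 3 S2 pairs for genes of mitosis. For pim, CycB3 and Nuf2 the disc pairs lie near 0 and the S2 pairs at 0.68 to 1.07 on average, while cid lies below 0 in every disc pair.

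Among spindle genes, mei-38 fell in the disc by 1.21 ± 0.09 against -0.08 ± 0.09 in S2, and the kinesin gene ncd rose in S2 by 0.83 ± 0.08 against -0.13 ± 0.08 in the disc. Klp67A, a kinesin of the metaphase spindle, rose in both, by 1.17 in the disc and 1.76 in S2 (difference -0.59 ± 0.12, adjusted p = 0.0214). pbl, a gene needed for cytokinesis, had a difference of -0.77 ± 0.17, and the augmin gene dgt6 one of -0.60 ± 0.14. Of 23 centrosome and centriole genes, 4 were lower (17.4%, against 6.98% of all genes) and 0 higher (median -0.21). Plp (-1.18 ± 0.15) and spd-2 (-0.98 ± 0.12) each fell in the disc and rose in S2, Cep135 rose in both (-0.60 ± 0.13), and ana2 fell in both (-0.54 ± 0.14). Of 16 condensin and cohesin genes, barr (-0.60) and Cap-D2 (-0.56) were lower (12.5%, against 6.98% of all genes). Left-out pairs removed some of these calls: the kinetochore count ranged from 3 to 7, the spindle count from 2 to 5, and the calls of Ndc80, Klp67A (both without disc pair 4 or S2 pair 4), Cenp-C, Spc105R, APC7, pbl, dgt6, Cep135, ana2, barr and Cap-D2 were lost with at least 1 pair left out, with adjusted p up to 0.139. The call of Zw10 was also lost, at least without disc pair 4.

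The chromatin and microtubule genes Chro and stai, which were picked after their values were seen, changed in the same manner. Chromator (Chro) was at -0.10 in the disc and 0.90 in S2 (difference -1.01 ± 0.17), and stathmin (stai) at -0.06 and 1.16 (difference -1.22 ± 0.19). In the list of DNA damage and cell death genes, 6 of 27 were lower (22.2%, against 6.98% of all genes) and 0 higher, with a median of -0.07. They were egr, a TNF ligand (-1.46 ± 0.20), RecQ4, the Ku70 gene Irbp (-0.71 ± 0.13), the Chk2 kinase gene lok (-0.74 ± 0.16), FANCI (-0.68 ± 0.15) and mus81 (-0.44). The calls of lok and FANCI were each lost with 3 of the 6 pairs left out in turn (adjusted p up to 0.0772 and 0.0859). That of mus81 was lost at least without disc pair 4.

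**Figure D4:**
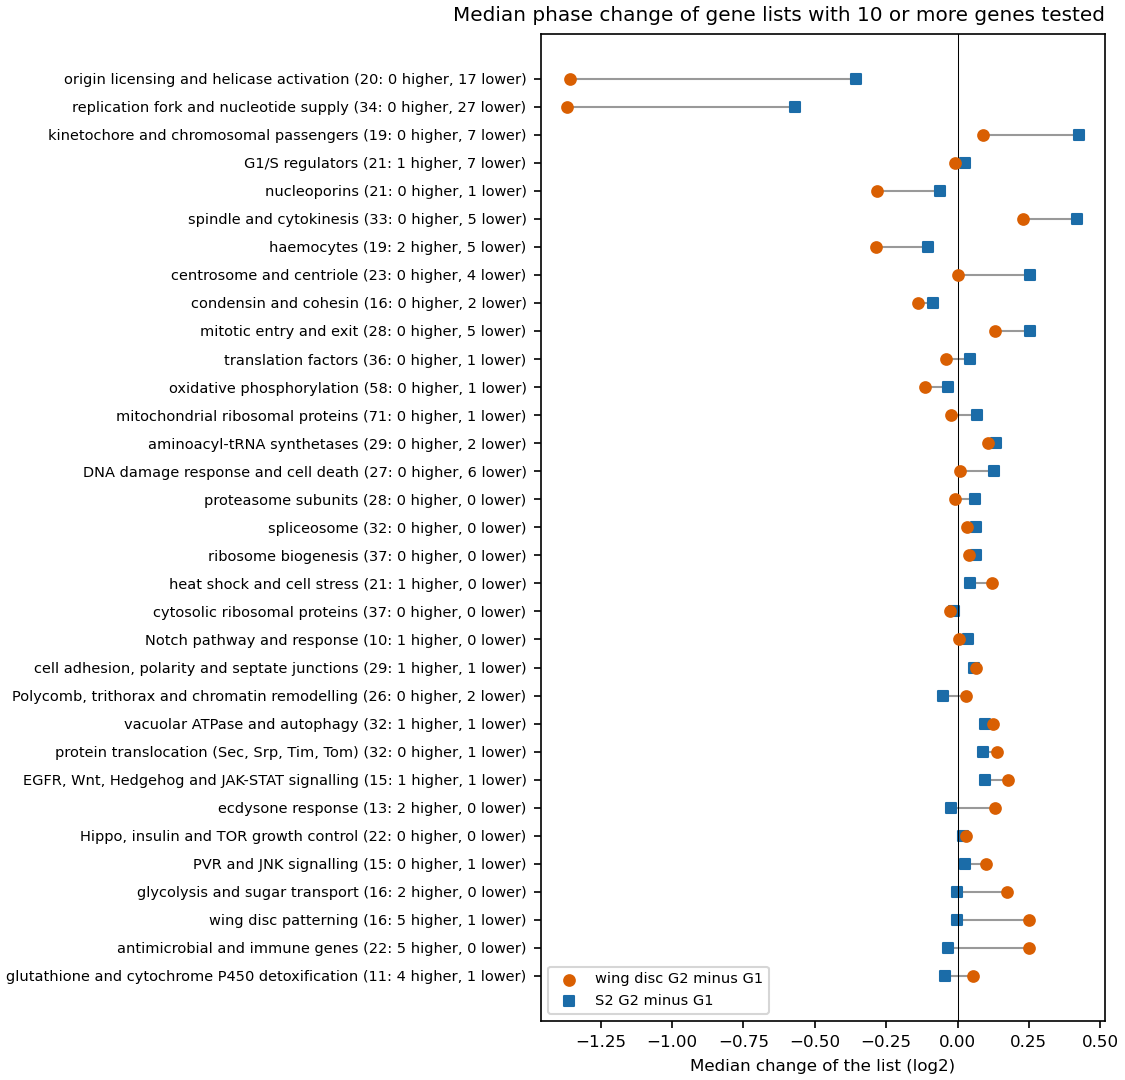
Median change in G2 relative to G1 (log2, horizontal axis) over the genes of each list with 10 or more genes tested, with circles for the disc, squares for S2, and a line joining both. Lists run down the page by their median difference, and labels give the genes tested and those with a higher or lower difference. Origin licensing (-1.16) and the replication fork (-0.77) have the lowest median differences among lists with over 10 genes tested, and the ribosomal, proteasome and spliceosome lists sit near 0.

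Outside the cell cycle machinery, 2 of the 3 lowest differences were those of jumu and spidey. jumu, a forkhead transcription factor, was at 8.41, 8.67 and 8.43 in disc G2, against 8.61, 8.87 and 8.60 in disc G1, and at 8.25, 8.65 and 9.09 in S2 G2, against 6.43, 7.11 and 7.30 in S2 G1. In S2 every G2 array was well above all G1 arrays, and in the disc each was slightly below its G1 partner. The S2 change was 1.72 ± 0.07 and the difference -1.90 ± 0.10 (adjusted p = 0.000186). spidey, which encodes a reductase of fatty acid elongation, was at 6.21, 5.83 and 5.97 in disc G2, against 7.08, 7.0 and 6.91 in disc G1, and at 10.64, 10.80 and 10.95 in S2 G2, against 9.57, 9.80 and 10.11 in S2 G1. Its fractions did not overlap in either cell type and were ordered oppositely, with a difference of -1.97 ± 0.11 (adjusted p = 0.000186). The fatty acid synthase gene FASN1 was also lower (-0.98 ± 0.19), though not without disc pair 4 or S2 pair 4 (adjusted p up to 0.0557).

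CG7730, a gene without a name, had a difference of -1.72 ± 0.18. For CG12768, also without a name, and mael, a gene of the piRNA pathway, all disc G2 arrays were below 5 (4.76, 4.76 and 4.39 for CG12768, and 3.91, 4.49 and 4.28 for mael). They were detected in the disc through G1 alone, so their fitted differences of -1.74 and -1.66 are set in part by background and carry no rank.

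On the higher side Ect3, a gene of the beta-galactosidase family, had the highest difference. It was at 8.22, 8.29 and 8.65 in disc G2, against 5.92, 5.62 and 5.86 in disc G1, and at 4.47, 5.02 and 4.83 in S2 G2, against 4.78, 5.13 and 5.23 in S2 G1. The disc fractions were over 2 units apart, and all 6 S2 values lay near the detection level, where a fall could be only partly seen. The disc change was 2.58 ± 0.10 and the difference 2.86 ± 0.15 (adjusted p = 0.000186). The odorant-binding protein gene Obp99a was at 9.32, 9.89 and 9.22 in disc G2, against 8.16, 8.94 and 8.16 in disc G1, and at 7.24, 7.56 and 8.52 in S2 G2, against 8.18, 8.21 and 9.89 in S2 G1. Each G2 array was above its G1 partner in the disc and below it in S2, although the S2 ranges overlapped across pairs. Its disc rise was 1.06 ± 0.12, its S2 fall 0.99 ± 0.12 and its difference 2.05 ± 0.17 (adjusted p = 0.000589).

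Opposite changes were also measured for CG9312 (1.29 in the disc and -0.65 in S2), the aldehyde oxidase gene AOX3 (1.30 and -0.40) and CG5397 (0.60 and -1.01). CG5399, next in rank, rose in the disc by 1.54 with an S2 change of -0.37 that did not pass.

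Glut1, a glucose transporter gene, was at 6.90, 6.25 and 6.85 in disc G2, against 5.99, 6.26 and 6.04 in disc G1, and at 6.68, 6.67 and 6.83 in S2 G2, against 7.55, 7.62 and 7.83 in S2 G1. In S2 the fractions were apart by about 0.9, whereas disc pair 3 showed no rise (6.25 in G2 and 6.26 in G1). The difference was 1.51 ± 0.22 (adjusted p = 0.00504). Of 16 genes of glycolysis and sugar transport, Glut1 and sut1 (0.49 ± 0.12, a call lost with 5 of the 6 pairs left out in turn) were higher (12.5%, against 4.47% of all genes) and 0 lower. The glycolytic enzymes Pfk (0.09), Gapdh1 (0.01), Eno (0.03) and Pgk (0.14) did not pass.

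**Figure D5:**
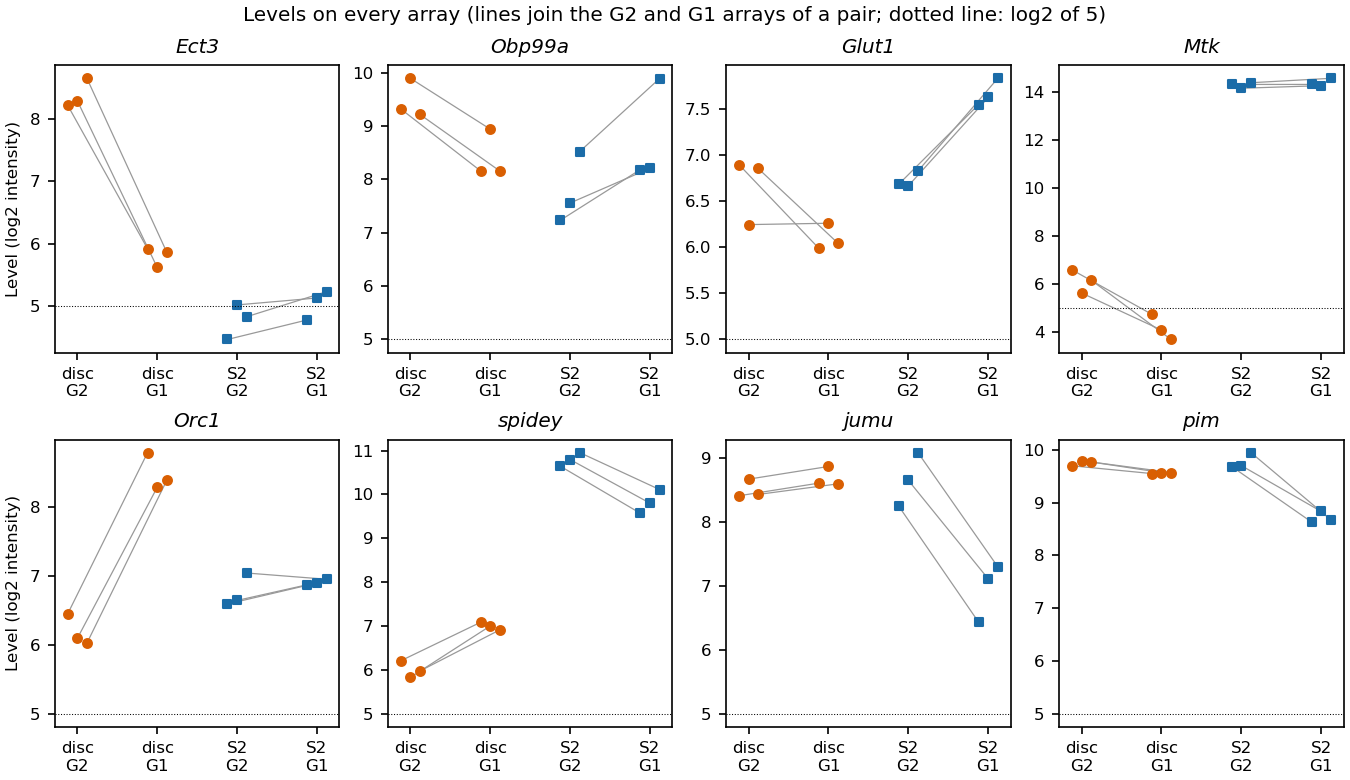
Log2 intensity on each of the 12 arrays for 8 genes, with disc G2, disc G1, S2 G2 and S2 G1 from left to right in each panel, lines joining the arrays of a pair, and a vertical scale of its own in each panel. The panels show Orc1 falling in disc G2 only by the test, jumu and pim rising in S2 G2, and Ect3 rising in disc G2 with S2 near a log2 of 5.

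Antimicrobial peptides are secreted by immune tissues when the Toll or Imd pathway is active. Of 22 immune genes, 5 were higher (22.7%, against 4.47% of all genes), 0 lower, and the median difference was 0.24. The count ranged from 3 (without disc pair 2 or S2 pair 4) to 6 with a pair left out, was 2 without the pairing, and was 3 of 19 among genes with all 4 group means of at least 5. Mtk (metchnikowin) was at 6.61, 5.65 and 6.18 in disc G2, against 4.76, 4.10 and 3.71 in disc G1, and at 14.34, 14.18 and 14.41 in S2 G2, against 14.33, 14.28 and 14.59 in S2 G1. The disc fractions did not overlap, with G1 near background, and the S2 values lay close to the brightest value on any array (a log2 of 14.80 to 14.95), where a change could be compressed. Mtk was detected in the disc through G2 alone, so its fitted difference of 2.05 is set in part by background and by the top of the scale.

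Drs (2.20 ± 0.42, adjusted p = 0.0159) and AttD (1.93 ± 0.50, adjusted p = 0.0465) had S2 values of 13.54 to 13.82 for Drs and 14.33 to 14.40 for AttD. The call of Drs was lost without disc pair 2 or S2 pair 4 (adjusted p up to 0.0593), and that of AttD with 5 of the 6 pairs left out in turn (adjusted p up to 0.144). CecB lay below that level in S2, at 11.84, 10.56 and 9.77 in S2 G2, against 12.52, 11.35 and 10.98 in S2 G1. In the disc it was at 5.99, 5.46 and 6.22 in G2, against 5.17, 4.83 and 5.66 in G1. Each pair rose in the disc and fell in S2, and the difference was 1.56 ± 0.15 (adjusted p = 0.000906). The recognition protein gene PGRP-SC2 fell in S2 by 0.75 and was at 0.08 in the disc (difference 0.83 ± 0.13). The upstream genes Tl (-0.23), Rel (0.43), imd (0.26) and key (0.07) did not pass.

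Of 57 wing disc patterning genes, 49 had a probe set of their own and only 16 were detected in both cell types. Of these 16, 5 were higher (31.2%, against 4.47% of all genes) and 1 lower (median 0.18). dpp, the BMP ligand that patterns the wing, was at 8.10, 7.98 and 7.77 in disc G2, against 7.40, 7.44 and 7.18 in disc G1, and at 5.55, 5.98 and 5.81 in S2 G2, against 5.75, 6.72 and 6.42 in S2 G1. It was higher in every disc G2 array and lower in each S2 pair, a difference of 1.13 ± 0.14 (adjusted p = 0.00277). The peptidase gene Ance was at 12.82, 12.77 and 12.60 in disc G2, against 11.70, 12.17 and 11.79 in disc G1, and at 7.29, 7.18 and 6.95 in S2 G2, against 7.95, 7.94 and 7.47 in S2 G1. Its disc rise was 0.84, its S2 fall 0.65, and its difference 1.49 ± 0.15 (adjusted p = 0.000921). The GATA factor gene pnr rose in the disc only by the test (0.96 and -0.02, difference 0.98 ± 0.17), and the glypican gene dlp fell in S2 (0.29 and -0.64, difference 0.93 ± 0.15). bowl (0.56 ± 0.12) was the other higher gene and ct (-0.69 ± 0.18) the lower one. Both calls were lost with several pairs left out, 4 of 6 for bowl and 5 of 6 for ct.

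Genes of the ecdysone response, the steroid signal that rises in wandering larvae, included 2 of 13 that were higher (15.4%, against 4.47% of all genes) and 0 lower: ImpE3 (0.50 in the disc and -0.46 in S2, difference 0.97 ± 0.12) and br, the Broad transcription factor (0.33 and -0.44, difference 0.77 ± 0.13). Of 11 detoxification genes, 4 were higher (36.4%, against 4.47% of all genes) and 1 lower, with 1 to 4 higher when a pair was left out. GstS1, a glutathione transferase, was at 12.12, 12.13 and 12.31 in disc G2, against 12.24, 12.17 and 12.09 in disc G1, and at 6.78, 6.54 and 6.51 in S2 G2, against 7.69, 7.59 and 7.47 in S2 G1. The disc fractions overlapped and the S2 fractions were about 1 unit apart, giving a difference of 0.99 ± 0.12 (adjusted p = 0.00188). GstE9 (0.52), Cyp4e2 (0.51), GstO3 (0.42) and GstE6 (-0.39) passed as well, but each lost its call with 3 or more pairs left out in turn.

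SPARC and both collagen IV genes, members of the haemocyte list that were picked for their small p, had lower differences. In the disc, haemocytes and the muscle precursors attached to the epithelium are known to express collagen IV and SPARC, a protein that binds it. SPARC was at 10.50, 10.95 and 10.73 in disc G2, against 12.29, 12.51 and 12.14 in disc G1, and at 12.63, 12.67 and 12.48 in S2 G2, against 12.77, 12.73 and 12.70 in S2 G1. The disc fractions were over 1 unit apart and the S2 fractions about 0.1, and the difference was -1.45 ± 0.12 (adjusted p = 0.00053). Both collagen IV genes followed, vkg at -1.77 ± 0.14 and Col4a1 at -1.59 ± 0.13, each with a fall of 1.62 in the disc. The transcription factor gene zfh1, expressed in muscle precursors and blood cells, had a difference of -1.42 ± 0.26.

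Marker sets of those cells share genes with this group, zfh1 in the muscle precursor set and SPARC in the haemocyte set, so their sums are not separate from it. Outside the group, twi, htl, Him and Act87E averaged 9.25, 7.14, 11.45 and 6.86 in disc G2, against 10.57, 8.63, 12.68 and 8.28 in disc G1. The summed intensity of 5 muscle precursor markers on the array (twi, htl, Him, zfh1 and Act87E) was 2235.1 to 4914.5 in disc G2, against 7884.9 to 10367.4 in disc G1, and all 5 had disc means of at least 5. In S2 the sum was 904.4 to 1471.1 in G2, against 1168.6 to 1342.5 in G1, and 1 of the 5, zfh1, was at or above 5. The sum of the 7 haemocyte markers was 1760.1 to 2192.0 in disc G2, against 4816.0 to 6255.0 in disc G1, most of it from SPARC, while srp, which defines blood cells, was below 3 in the disc. In S2 it was 11507.4 to 12424.7 in G2, against 12004.0 to 13741.4 in G1. The haemocyte genes He and Pxn fell in disc G2 (by 0.98 and 0.59), and Hml was at -0.49 there, which did not pass. Their differences from S2, -0.30 for He, -0.14 for Pxn and -0.56 for Hml, did not pass. NimC1 averaged 5.21 in disc G2 and 4.93 in disc G1, and PPO1 4.98 and 5.49, all near background. In the disc, 7 of the 19 haemocyte genes tested fell and 1 rose. Of the 19 haemocyte genes tested, 5 were lower (vkg, Col4a1, SPARC, zfh1 and Ppn at -0.71 ± 0.14) and 2 higher (Tep4 at 0.66 ± 0.13 and NimC4 at 0.58 ± 0.09). These are 26.3% and 10.5% of the list, against 6.98% and 4.47% of all genes. Ppn lost its call without disc pair 4 or S2 pair 4, and Tep4 with 4 of the 6 pairs left out in turn. The sum of the tracheal markers went the other way in the disc, at 3173.2 to 3408.8 in G2, against 2046.5 to 2529.7 in G1. In S2 it was between 94.8 and 109.0. Most of the disc sum came from verm and serp, and uif and vvl were also higher in disc G2. The tracheal marker btl was below 5 and level in the disc (4.19 in G2 and 4.18 in G1). Fat body markers were near background in all groups, with sums of 45.2 to 56.6. What these cells add to the difference was not tested.

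Single genes of other lists also passed. nrv2, a sodium pump subunit, fell in the disc and rose in S2 (difference -1.06 ± 0.16), and the Polycomb group gene esc was at -0.85 ± 0.13. kek1, an inhibitor of the EGF receptor, was at 0.73 ± 0.10, betaTub97EF at 0.80 ± 0.10 and the tracheal chitin deacetylase gene verm at 0.74 ± 0.13, with verm near 5 in S2 and its call lost without S2 pair 4 (adjusted p = 0.0509). scrib (-1.60 ± 0.28) rests on 1 of its 3 probe sets, and the others were at 0.07 and 0.10 and did not pass. Over all called genes with a further tested probe set, 16 of 19 had no other probe set that passed, and 8 of 19 had one of opposite sign.

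Several lists had no gene with a passing difference in either direction: Hippo, insulin and TOR growth control (22 genes), cytosolic ribosomal proteins (37), proteasome subunits (28), ribosome biogenesis (37) and the spliceosome (32). Near-empty lists were the mitochondrial ribosomal proteins with 1 of 71 (mRpS30, -0.40), oxidative phosphorylation with 1 of 58 (Cyt-c1, -0.37), translation factors with 1 of 36 (eEF1alpha2, -1.0) and nucleoporins with 1 of 21 (Elys, -0.54). Each of these 4 calls was lost with at least 4 of the 6 pairs left out in turn. Of the 663 genes with a passing difference, 134 were in one of the 39 lists and 529 in none, and 209 carry only a CG or CR number as a name.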

How the data were processed

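RNA was measured on 12 Affymetrix Drosophila arrays. The authors deposited linear intensity values per probe set, for which the submitters' processing notes name RMA and R 2.15.2. How RMA was set is not stated in the labels. The log2 of the deposited intensity was taken, and 183 control probe sets were left out. Of 18769 others, 13646 had 1 gene in the platform annotation, 402 several and 4721 none listed.

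One limma 3.58.1 model (R 4.3.3, lmFit and eBayes) gave both changes and their difference, with the title number of each cell type as a fixed block (4 residual and 4.09 prior degrees of freedom). Tests were two-sided and adjusted after Benjamini and Hochberg over 7050 probe sets. Same-numbered G2 and G1 arrays deviated together from their group means (r of 0.315 to 0.591 in the 6 pairs, against -0.548 to -0.036 for other pairings), so the numbers pair the samples. The number of arrays limits the precision. Probe-set intensities of different genes were not compared, since probes differ in response.

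Members and the 39 lists were chosen with earlier results of these data known. Named genes were the 10 highest and 10 lowest differences with complete separation of the pairs, up to 3 of smallest p per list, up to 8 with opposite and 8 with shared changes, CycB, CycE, PCNA and dnk, and further list members chosen after their values were seen. Lists are described by counts and medians. Alternatives covered the block, filters, scaling, variance model and each pair left out. Tables and plots used Python 3.11.15 and pandas 2.3.3.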

Additional observations from a re-analysis of the deposited data

Results flagged for a closer look

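Every result here was picked out by the limma test of the difference itself, since the change between G1 and G2 differed between the disc and S2. The test passed for 758 probe sets. The values that follow are log2 differences with the S2 change subtracted from the disc change, and no explanation was weighed.

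Replication genes were at -2.15 (Orc1), -1.83 (Cdc6), -1.81 (dup), -1.59 (mus101), -1.56 (Orc2), -1.45 (Mcm10), -1.33 (Mcm5), -1.25 (Cdc45), -1.10 (Mcm2), -1.42 (Prim1), -1.41 (CG12892), -1.25 (PolA1), -1.12 (dnk), -1.06 (RnrL), -0.99 (RfC3), -0.97 (Ts), -0.64 (PCNA), -1.13 (hd) and -1.01 (Slbp). DNA damage and cell death genes were at -1.46 (egr), -1.37 (RecQ4), -0.74 (lok), -0.71 (Irbp) and -0.68 (FANCI). G1/S regulators were at -0.81 (Rbf2), -0.79 (lin-52), -0.67 (mip130), -0.67 (CycE), -0.62 (Cks30A), -0.46 (Dp) and 0.45 (Cdk4).

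Kinetochore and mitotic genes were at -1.66 (cid), -0.83 (Nuf2), -0.79 (borr), -0.68 (Cenp-C), -0.67 (Ndc80), -0.54 (Spc105R), -0.90 (APC7), -0.87 (pim), -0.78 (CycB3), -0.76 (thr) and -0.67 (mad2). Spindle, centrosome and condensin genes were at -1.13 (mei-38), -0.96 (ncd), -0.77 (pbl), -0.60 (dgt6), -0.59 (Klp67A), -1.18 (Plp), -0.98 (spd-2), -0.60 (Cep135), -0.54 (ana2), -0.60 (barr), -0.56 (Cap-D2), -1.22 (stai) and -1.01 (Chro). Tubulin genes were at 0.80 (betaTub97EF) and -0.52 (alphaTub85E). The call of alphaTub85E was lost with 4 of the 6 pairs left out in turn (adjusted p up to 0.102).

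The highest differences were 2.86 (Ect3), 2.20 (Drs), 2.05 (Mtk), 2.05 (Obp99a), 1.93 (CG9312), 1.93 (AttD), 1.91 (CG5399), 1.70 (AOX3), 1.62 (CG5397), 1.56 (CecB) and 1.51 (Glut1), with 0.83 for PGRP-SC2 and 0.49 for sut1. Ect3, Mtk, AttD and CG5397 each had a group mean under 5, which limits the size of their values. Mtk was detected in the disc through G2 alone, and its value is set in part by background and by the top of the scale. Patterning and ecdysone genes were at 1.49 (Ance), 1.13 (dpp), 0.98 (pnr), 0.93 (dlp), 0.56 (bowl), -0.69 (ct), 0.97 (ImpE3) and 0.77 (br). Detoxification genes were at 0.99 (GstS1), 0.52 (GstE9), 0.51 (Cyp4e2), 0.42 (GstO3) and -0.39 (GstE6). Secreted proteases, serpins and chitinase-like genes were at 1.28 (spirit), 1.13 (grass), 1.13 (Spn77Ba), 1.02 (Sp7), 1.07 (Idgf4), 0.84 (Cht2), 0.70 (Cht10) and 0.38 (Idgf1). Both spirit and Sp7 had a group mean under 5, close to background.

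Matrix and blood cell genes were at -1.77 (vkg), -1.59 (Col4a1), -1.45 (SPARC), -1.42 (zfh1), -0.71 (Ppn), 0.66 (Tep4) and 0.58 (NimC4). The piRNA genes were at -1.66 (mael, set in part by background), -0.99 (spn-E), -0.96 (zuc), -0.82 (cuff) and -0.65 (shu). Signalling genes were at 0.73 (kek1), -0.45 (spi), 0.53 (numb), -0.34 (bsk) and -0.92 (neur). Adhesion and nervous system genes were at -1.60 (scrib), 0.47 (Lac), -1.06 (nrv2), 0.60 (loco), 0.67 (Gli) and 0.74 (verm). Chromatin, translation and organelle genes were at -0.85 (esc), -0.66 (Trl), -0.39 (HisRS), -0.50 (TrpRS-m), -0.40 (mRpS30), -1.0 (eEF1alpha2), -0.54 (Elys), -0.37 (Cyt-c1), -0.35 (Tom40), 0.53 (Gp93), -0.46 (Atg10) and 0.37 (Atg4a). Of the genes in the last 3 groups, several lost their call with single pairs left out in turn: spi, numb, bsk, neur, Gli, HisRS, TrpRS-m, mRpS30, Tom40, Atg10 and Atg4a with 5 of the 6 pairs, Cyt-c1 and eEF1alpha2 with all 6, Trl, loco, Elys and Gp93 with 4, Lac with 3 and verm with 1. The adjusted p reached up to 0.159 (Cyt-c1). Other genes were at -1.97 (spidey), -1.90 (jumu), -1.74 (CG12768, set in part by background), -1.72 (CG7730), -1.42 (Mal-A5), -1.36 (CG11164), -1.32 (CG10336), -1.25 (CG13690) and -0.98 (FASN1).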

How the results depend on the processing

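All 758 probe sets kept the sign of their difference in each alternative in which they were tested, but this was largely fixed in advance. Filters, the block and the variance model leave the fitted difference of a probe set as it was. In the 663 genes, complete separation of the pairs also fixed the sign with a pair left out. The count itself moved. Without the replicate block in the fit it was 298 (83 higher and 215 lower), of which 297 were among the 758, and with array weights it was 1762 (744 higher and 1018 lower). Detection judged over all 12 arrays, whatever the cell type, gave 949 probe sets, with 479 higher against 304. Other filters, scalings and variance models gave between 592 and 931, and a filter on all 4 group means, chosen after seeing the data, gave 722. With 1 pair left out the count ran from 367 to 995 (139 to 430 higher and 228 to 565 lower). The number of arrays, with 4 residual degrees of freedom, limits the precision.

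The disc change passed for 1443 probe sets (20.5%), against 756 without the block, 2288 with array weights and 656 to 1965 with a pair left out. The S2 change passed for 1552 (22%), against 828 without the block, 2933 with array weights and 633 to 1601 with a pair left out. For the 142 named genes, 2109 of the values under alternatives stayed on the same side of the threshold, 350 no longer passed, 2 for Cdc7 newly passed, and 1 reversed: the difference of Pxn, not called, ran from -0.30 to 0.16 with a pair left out, with the positive value without disc pair 3. The cause was not tested.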

Other observations

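A few gene groups were put together after their values had been seen, so their counts describe these arrays and test nothing. Among 22 genes of the piRNA pathway, which silences transposons in the germ line, 6 had a lower difference and 1 a higher one, with a median of -0.27. Over all genes, 6.98% had a lower difference and 4.47% a higher one. mael was at -1.66, spn-E at -0.99, zuc at -0.96, cuff at -0.82, shu at -0.65 and vls at -0.46, and tud was at 0.56. Since mael was detected in the disc through G1 alone, its value is set in part by background and carries no rank. spn-E was at 6.25, 6.40 and 6.34 in disc G2, against 7.26, 7.27 and 7.37 in disc G1, and at 8.54, 8.57 and 8.81 in S2 G2, against 8.68, 8.83 and 8.37 in S2 G1. Only the disc fractions of spn-E were apart. Other members, such as armi (0.01), krimp (-0.38) and vret (-0.17), did not pass.

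Another group held 11 genes, which encode proteases of the Toll and melanization cascades or serpins of any role. Of these, 5 had a higher difference (against 4.47% of all genes) and 1 a lower one (against 6.98%), with a median of 0.31. The serpin gene Spn77Ba was at 10.63, 10.65 and 10.63 in disc G2, against 10.04, 10.04 and 10.07 in disc G1, and at 7.29, 7.2 and 7.16 in S2 G2, against 7.80, 7.84 and 7.63 in S2 G1. It rose in every disc pair and fell in every S2 pair, a difference of 1.13 ± 0.09 (adjusted p = 0.000521). The proteases spirit (1.28), grass (1.13) and Sp7 (1.02) and the serpin Spn28Dc (0.86) shared these directions, and Spn42De was at -1.12. A group mean of spirit and one of Sp7 lay under 5, close to background, which limits the size of their differences. The call of Sp7 was lost without S2 pair 4 (adjusted p = 0.0578).

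Among 7 chitinases and imaginal disc growth factors, 4 had a higher difference (against 4.47% of all genes) and 0 a lower one, with a median of 0.38. Of these 4 calls, that of Idgf1 was lost with 5 of the 6 pairs left out in turn and that of Cht10 with 2. Cht2 was at 11.11, 11.09 and 11.09 in disc G2, against 11.10, 11.11 and 11.12 in disc G1, and at 5.76, 5.40 and 5.39 in S2 G2, against 6.51, 6.26 and 6.36 in S2 G1. Its disc values were level to within 0.03, and its S2 change was -0.86 ± 0.07. Idgf4 rose in the disc by 0.95 ± 0.10 and was at -0.12 ± 0.10 in S2.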
